A study of Sus scrofa with 8 samples.

Results

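The integrin subunits ITGA4 and ITGB3, the cadherin CDH11 and the membrane-anchored glycoprotein CD109 are cell-surface genes measured here in the infarcted pig heart, 4 of the 1121 genes that could be named on the arrays. They were picked by symbol from the authors' comparison of infarcted with remote tissue, a table limited to transcripts that differed between the regions, so the difference between regions chose them and is given below as a description with no test. Infarcted and remote left ventricular myocardium was taken from each of 4 young female Large White pigs, which gave 4 infarcted and 4 remote samples. In each pig a balloon had closed the left anterior descending coronary artery at its mid portion for 90 min, and each had received amiodarone, acetylsalicylic acid and antibiotics, so these are shared by all samples. By the methods, pigs entered the study only with an infarct above a minimum size and an ejection fraction below a maximum on magnetic resonance imaging. The infarcted sample came from the anterior and the remote sample from the posterior wall of the same heart, and no heart without an infarction was analysed here. The tissue was collected 10 days after infarction by the study's methods and 7 days by the design text. Values are log2 signals of transcript clusters, the array's units of measurement, and a difference of 1 is a 2-fold change.

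Integrins are receptors made of an alpha and a beta subunit that tie the cytoskeleton to the matrix or to counter-receptors on other cells, and they signal in both directions across the membrane. ITGA4 pairs with ITGB1 or ITGB7, is abundant on lymphocytes and monocytes, and binds VCAM1 and fibronectin. ITGB3 pairs with ITGA2B on platelets and with ITGAV on several other cell types, and its ligands include fibrinogen, vitronectin and osteopontin. CDH11 is a calcium-dependent cell-cell adhesion protein of mesenchymal cells such as fibroblasts, which binds CDH11 on the neighbouring cell. CD109 belongs to the alpha-2-macroglobulin family, is held in the membrane by a lipid anchor, and is known in human cells as a co-receptor that can limit TGF-beta signalling. In healing myocardium, receptors of these kinds are known for leukocyte entry, platelet adhesion and the attachment of fibroblasts to new matrix.

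Pig 4 was unlike the other pigs on both of its arrays. The SD of log2 signals over all transcript clusters was 1.46 for its infarcted and 1.49 for its remote sample, and 1.68 to 1.84 for the 6 samples of pigs 1 to 3. The differences of the 4 genes are therefore also given without this pig, as are the calls of other genes named below that change without it. Array medians were 2.96 to 3.22, and a signal below its array's median is not shown here to be above background. Of the cardiomyocyte markers, 7 of 14 carried a name, and their mean log2 signal per sample was 6.59 to 8.61 in infarcted and 9.32 to 10.28 in remote tissue. Each sample pools all cells of the tissue, so more cells of a type and more RNA per cell cannot be told apart.

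CDH11 had the widest difference between the regions among the 4 genes. Its log2 signal was 8.12, 8.73, 8.23 and 7.12 in the infarcted tissue of pigs 1, 2, 3 and 4, against 4.69, 4.86, 4.52 and 4.37 in their remote tissue. Every infarcted sample was above every remote sample, with 2.26 between the lowest infarcted and the highest remote value. The means were 8.05 ± 0.67 in infarcted and 4.61 ± 0.21 in remote tissue (SD, n = 4 pigs each), a difference of 3.44 (standard error 0.32), which is 10.9-fold. This standard error, like all those below, is from a limma fit that does not use the pairing within pigs. The SD over pigs gives the spread of the paired differences. Within pigs the difference was 3.43, 3.87, 3.71 and 2.75 (SD over pigs 0.49), so pig 4 had both the lowest infarcted signal and the narrowest difference. In each pig between 0.0942% and 0.181% of all 25470 transcript clusters had a difference at least as high, and by the mean difference CDH11 ranked 17th from the top. Remote signals of CDH11 were close to each other, with 23.4% of all transcript clusters having a lower SD among remote samples, while 84.8% had a lower SD among infarcted samples.

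ITGA4 was the most even of the 4 genes across pigs. Its log2 signal was 5.16, 4.88, 5.56 and 5.63 in the infarcted tissue of pigs 1 to 4, against 3.23, 3.09, 3.98 and 3.28 in remote tissue. The groups did not overlap, and the gap between them was 0.90. The means were 5.31 ± 0.35 in infarcted and 3.40 ± 0.40 in remote tissue (SD, n = 4 each), a difference of 1.91 (standard error 0.27) or 3.76-fold. Remote signals in pigs 1, 2 and 4 were only a little above their array medians of 2.98, 2.96 and 3.18, which limits how well this size is known. Within pigs the difference was 1.93, 1.79, 1.58 and 2.35 (SD over pigs 0.33). Pig 4 had the widest difference for ITGA4 and also its highest infarcted signal. Pig 3 was close at 5.56, and the infarcted array medians were 3.22 in pig 4 and 3.05 in pig 3. For ITGB3, CDH11 and CD109 pig 4 had the lowest infarcted signal. Without pig 4 the difference was 1.77 for ITGA4 and 3.67 for CDH11.

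ITGB3 was higher in infarcted tissue in pigs 1 to 3 and lower in pig 4. Its log2 signal was 4.10, 4.38, 4.35 and 2.14 in the infarcted tissue of pigs 1, 2, 3 and 4, against 1.98, 2.03, 2.36 and 3.03 in remote tissue. In pig 4 the infarcted sample was the lowest of its region and the remote sample the highest of its region, so the groups overlapped. The means were 3.74 ± 1.08 in infarcted and 2.35 ± 0.48 in remote tissue (SD, n = 4 each), a difference of 1.39 (standard error 0.47). Within pigs the difference was 2.12, 2.35 and 1.99 in pigs 1 to 3 and −0.89 in pig 4 (SD over the 4 pigs 1.53). Pigs 1 to 3 alone averaged 4.28 in infarcted and 2.12 in remote tissue, a difference of 2.15 ± 0.18 (SD over pigs) or 4.45-fold. With pig 4 included, 97.6% of all transcript clusters had a lower SD among infarcted samples than ITGB3. All 4 remote signals and the infarcted signal of pig 4 were below the medians of their arrays, so the size of the difference is not exact.

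CD109 was higher in infarcted tissue in all 4 pigs, by an amount that varied between them (SD over pigs 0.77). Its log2 signal was 3.28, 3.96, 3.17 and 3.04 in the infarcted tissue of pigs 1 to 4, against 2.32, 1.49, 2.40 and 1.91 in remote tissue. The groups did not overlap, with a gap of 0.64. The means were 3.36 ± 0.41 in infarcted and 2.03 ± 0.42 in remote tissue (SD, n = 4 each), a difference of 1.33 (standard error 0.28) or 2.52-fold. Within pigs the difference was 0.96, 2.47, 0.77 and 1.13, and pig 2 combined the highest infarcted with the lowest remote signal. Without pig 4 the difference was 1.40 ± 0.93 (SD over pigs). All 4 remote signals and the infarcted signal of pig 4 were below their array medians, so this difference is not exact either.

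**Figure D1:**
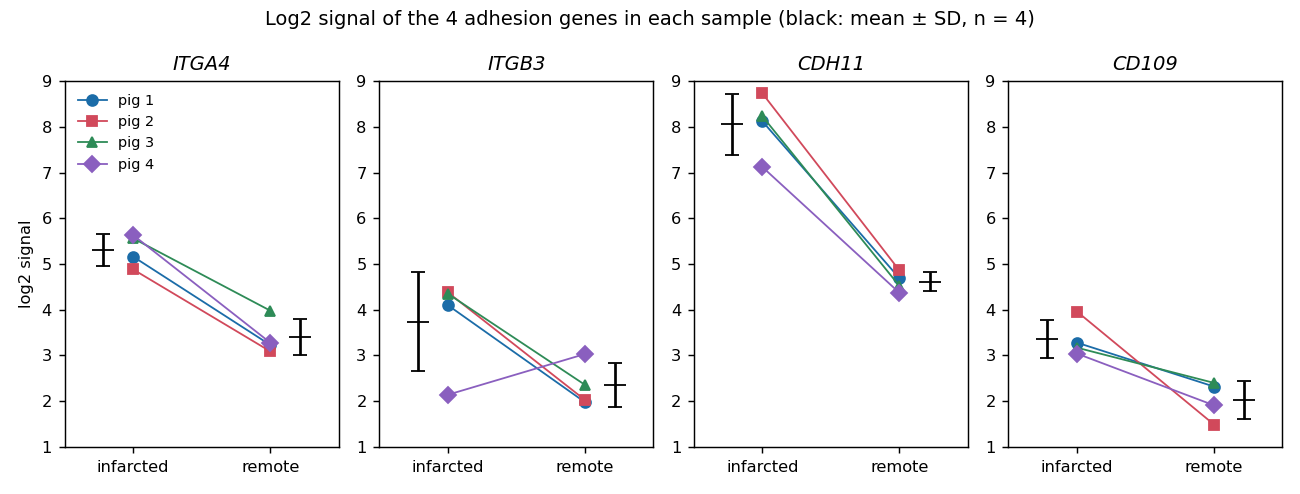
Log2 signal (vertical axis) of ITGA4, ITGB3, CDH11 and CD109 in infarcted and remote tissue, with the 2 samples of a pig joined by a line and the mean ± SD (n = 4) in black beside them. The line of pig 4 runs the other way for ITGB3, with 2.14 in infarcted and 3.03 in remote tissue, and all other lines run from a higher infarcted to a lower remote signal.

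Both limits of the study (a change of more than 2-fold and an adjusted p below 0.05) were met in limma by 3 of the 4 genes, CDH11, ITGA4 and CD109, against 2.19% of all 25470 transcript clusters called higher in infarcted tissue. With a replicate block for the pig the count was 3 beside 3.33%, and without pig 4 it was 4 beside 4.64%. It was 2 when infarcted replicate 1 or remote replicate 2 was left out, with CD109 not called, beside 1.01% and 1.09% of all transcript clusters. It was 4 when infarcted replicate 4 was left out, with ITGB3 called, beside 4.42%. All infarcted signals exceeded all remote signals for 3 of the 4 genes, and for 5.19% of all transcript clusters, while the reverse held for none of the 4 and for 5.06% of the clusters. A higher signal in infarcted tissue in all 4 pigs held for 3 of the 4 genes and for 14.3% of the transcript clusters. Nothing is read from these counts, since the genes were chosen on the same difference.

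The 4 genes differed from each other in how the pigs were ordered. From high to low, infarcted signals ran over pigs 4, 3, 1 and 2 for ITGA4, pigs 2, 3, 1 and 4 for both ITGB3 and CDH11, and pigs 2, 1, 3 and 4 for CD109. In remote tissue the order was pigs 3, 4, 1 and 2 for ITGA4, pigs 4, 3, 2 and 1 for ITGB3, pigs 2, 1, 3 and 4 for CDH11 and pigs 3, 1, 4 and 2 for CD109. A sample that was high for 1 of these genes was thus not high for all of them. Over all transcript clusters, the median size of the within-pig difference was 0.37, 0.34, 0.39 and 0.42 in pigs 1 to 4, and the SD of these differences was 0.81, 0.76, 0.83 and 0.73. By the first measure pig 4 had the widest and by the second the narrowest differences of the 4 pigs. The fold of CDH11 within a pig was 10.8, 14.6, 13.1 and 6.73 in pigs 1 to 4, and that of ITGA4 was 3.81, 3.46, 2.99 and 5.10.

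**Figure D2:**
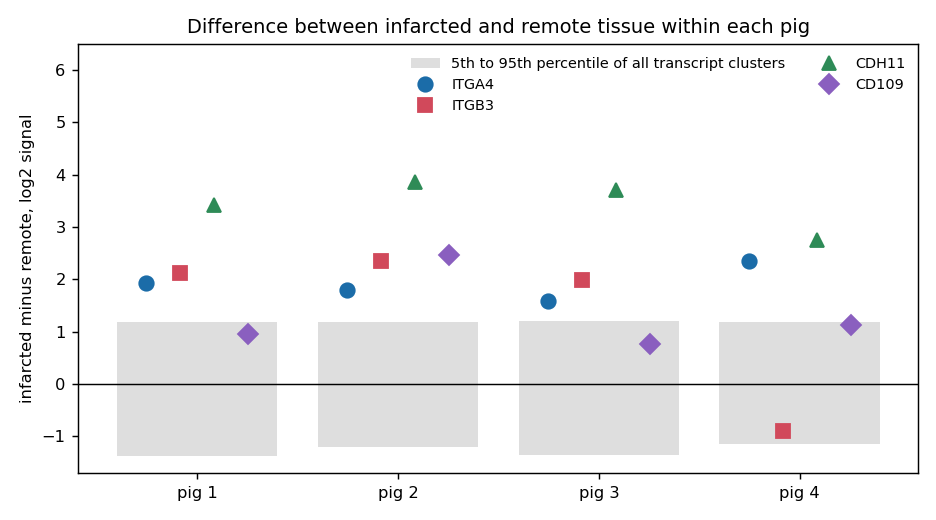
Infarcted minus remote log2 signal (vertical axis) of the 4 genes in each pig, with a grey band from the 5th to the 95th percentile of all 25470 transcript clusters in that pig. CDH11 lies above the band in all 4 pigs, ITGA4 too, ITGB3 in pigs 1 to 3 with −0.89 in pig 4, and CD109 only in pig 2 with 2.47.

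Other integrin subunits moved in both directions. Of 24 subunits besides ITGA4 and ITGB3, 5 carried a name, and of these ITGA8, ITGA2 and ITGA11 rose in infarcted tissue, ITGB6 fell and ITGB8 did not pass (2.19% of all transcript clusters were called higher and 3.19% lower). Names exist only for transcripts that the authors kept for their change, so the 19 subunits without a name, among them the partners ITGB1, ITGB7, ITGAV and ITGA2B, were not analysed here, and the counts and medians of every list below are of genes selected in this way. The median difference of the 5 named subunits was 2.16, beside 0.02 over all transcript clusters and −1.01 over all named genes. ITGA11, a collagen receptor subunit of fibroblasts, had 5.82 ± 0.18 in infarcted and 3.66 ± 0.23 in remote tissue (SD, n = 4 each), a difference of 2.16 (standard error 0.21, adjusted p = 0.000764 from limma). ITGB6, which pairs with ITGAV on epithelial cells and activates latent TGF-beta, had 2.86 ± 0.47 in infarcted and 5.85 ± 0.36 in remote tissue, a difference of −2.99 (standard error 0.28, adjusted p = 0.000762). The log2 signal of ITGA8, a fibronectin receptor subunit of mesenchymal cells, was 5.63, 6.33, 6.43 and 3.70 in infarcted tissue, against 2.42, 2.37, 3.58 and 2.68 in remote tissue. Pig 4 had the lowest infarcted signal of ITGA8, as it had of ITGB3, but still a higher one than its remote sample. ITGA8 differed by 2.76 (standard error 0.55, adjusted p = 0.0146), and ITGA2, a collagen receptor subunit also found on platelets, by 2.42 (standard error 0.58, adjusted p = 0.0349). ITGB8, another partner of ITGAV, differed by 1.09 (standard error 0.29, adjusted p = 0.0506, 0.0103 without pig 4 and 0.0227 with the replicate block). All 4 remote signals of ITGA2 and its infarcted signal in pig 4 were below their array medians, as were 3 of the 4 remote signals of ITGA8 and 3 of the 4 infarcted signals of ITGB6, so the sizes of these differences are not exact. ITGA8 lost its call when 1 of 4 arrays was left out, infarcted replicates 1 and 3 and remote replicates 1 and 2, with a highest adjusted p of 0.0537. ITGA2 lost it on leaving out 1 of 7 arrays, all but infarcted replicate 4 (highest 0.108), and ITGB8 gained a call on leaving out that array (0.0115). Over all transcript clusters, leaving out 1 array gave 258 to 1126 higher and 414 to 1357 lower calls, against 558 and 813 with all arrays.

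Ligands of these integrins that carried a name were all higher in infarcted tissue. Of 23 listed ligand symbols 5 were named, and all 5 rose, beside 2.19% of all transcript clusters. The list holds older and newer symbols of the same gene for CTGF (CCN2) and CYR61 (CCN1), so it has fewer genes than symbols. Their median difference was 3.85, beside 0.02 over all transcript clusters and −1.01 over all named genes. SPP1, which encodes osteopontin, a ligand of ITGB3 and ITGA4 integrins, had log2 signals of 10.15, 10.19, 10.37 and 5.31 in infarcted and 2.83, 3.28, 2.73 and 2.65 in remote tissue. FN1, which encodes fibronectin, had 10.96, 11.08, 10.99 and 7.55 in infarcted and 6.81, 6.20, 6.66 and 4.82 in remote tissue. As for ITGB3, the infarcted sample of pig 4 lay well below the other infarcted samples for both ligands. ITGA4 was not low in that sample, at 5.63, with 5.56 in pig 3. Of the remote signals of SPP1, 3 of 4 were below their array medians, so its difference is not exact. POSTN, a matrix protein of activated fibroblasts, differed by 3.85 (standard error 0.73, adjusted p = 0.0123 from limma), THBS1, a platelet and matrix glycoprotein, by 1.97 (standard error 0.44, adjusted p = 0.0241) and CTGF, a matricellular growth factor, by 1.63 (standard error 0.36, adjusted p = 0.0231). The 5 calls became 2 on leaving out infarcted replicate 1, beside 1.01% of all transcript clusters, and 3 on leaving out infarcted replicate 3, remote replicate 2 or remote replicate 3, beside 1.20%, 1.09% and 1.30%. In these fits THBS1 and CTGF were not called (highest adjusted p 0.0852 and 0.0824), POSTN was not called in the first (0.0504), and THBS1 was also lost when remote replicate 1 was dropped.

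Inside the cell, adaptors of integrins were split between the directions. Of 29 listed adaptors and signalling genes 5 were named, of which CIB1 and PTK2B rose, TLN2 and PARVB fell and LIMS2 did not pass. Of all transcript clusters 2.19% were called higher and 3.19% lower. The median difference of the 5 genes was −1.05, close to the −1.01 over all named genes. CIB1, a calcium-binding protein that attaches to the tail of ITGA2B in platelets, differed by 1.53 (standard error 0.27, adjusted p = 0.00886 from limma), and PTK2B, a kinase related to focal adhesion kinase and abundant in leukocytes, by 1.23 (standard error 0.22, adjusted p = 0.0100). TLN2, the talin of striated muscle that links integrin tails to actin, differed by −1.21 (standard error 0.21, adjusted p = 0.00811) and PARVB, a parvin of the same adhesion sites, by −1.05 (standard error 0.23, adjusted p = 0.0235). LIMS2, an adaptor of integrin-linked kinase, differed by −1.12 (standard error 0.31, adjusted p = 0.0675, 0.0123 without pig 4, and 0.0128 with the replicate block, when 3 genes of the list fell, beside 4.56% of all transcript clusters). On leaving out any 1 array of pigs 1 to 3, PARVB was not called (highest adjusted p 0.0886), which left 1 lower gene. LIMS2 was called when infarcted replicate 4 was dropped (0.0140), which gave 3.

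Unlike CDH11, the other named cadherins and catenins had lower mean signals in infarcted tissue. Of 27 other cadherins and catenins, 4 carried a name and none of them rose, while CDH13 and CTNNA1 fell, beside 3.19% of all transcript clusters, and CTNNA3 and JUP did not pass. CDH13, a cadherin with a lipid anchor in place of a cytoplasmic tail, had 4.21 ± 0.67 in infarcted and 6.44 ± 0.54 in remote tissue (SD, n = 4 each), a difference of −2.23 (standard error 0.37, adjusted p = 0.00642 from limma). CTNNA1, the alpha-catenin that links cadherins to actin, differed by −1.75 (standard error 0.46, adjusted p = 0.0486), and CTNNA3, the alpha-catenin of the cardiac intercalated disc, by −2.08 (standard error 0.66, adjusted p = 0.107, and 0.00845 with the replicate block). JUP, the plakoglobin of desmosomes and cadherin junctions, differed by −1.14 (standard error 0.38, adjusted p = 0.126). The median of the 4 genes was −1.91, beside −1.01 over all named genes. CTNNA1 lost its call on leaving out any single array except remote replicate 4 (highest adjusted p 0.156), which left 1 gene called. On leaving out remote replicate 4, or pig 4 altogether, all 4 genes fell, the first beside 1357 of the 25470 transcript clusters and the second beside 5.76% of them.

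For CD109, little of the surrounding pathway carried a name. Of 28 other genes of TGF-beta signalling and the alpha-2-macroglobulin family, 2 were named, of which TGFB3 rose, beside 2.19% of all transcript clusters, and ACVRL1 did not pass. TGFB3, a TGF-beta ligand, had log2 signals of 5.16, 5.60, 4.19 and 5.54 in infarcted and 3.32, 3.36, 3.69 and 3.32 in remote tissue, a difference of 1.70 (standard error 0.31, adjusted p = 0.0105 from limma). ACVRL1, a TGF-beta family receptor of endothelial cells, differed by 0.94 (standard error 0.33, adjusted p = 0.139), and was called when infarcted replicate 4 was dropped (1.26, adjusted p = 0.00872) and when pig 4 was (1.12, adjusted p = 0.00489). The other A2M family members and the TGF-beta receptors TGFBR1, TGFBR2 and TGFBR3 carried no name.

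**Figure D3:**
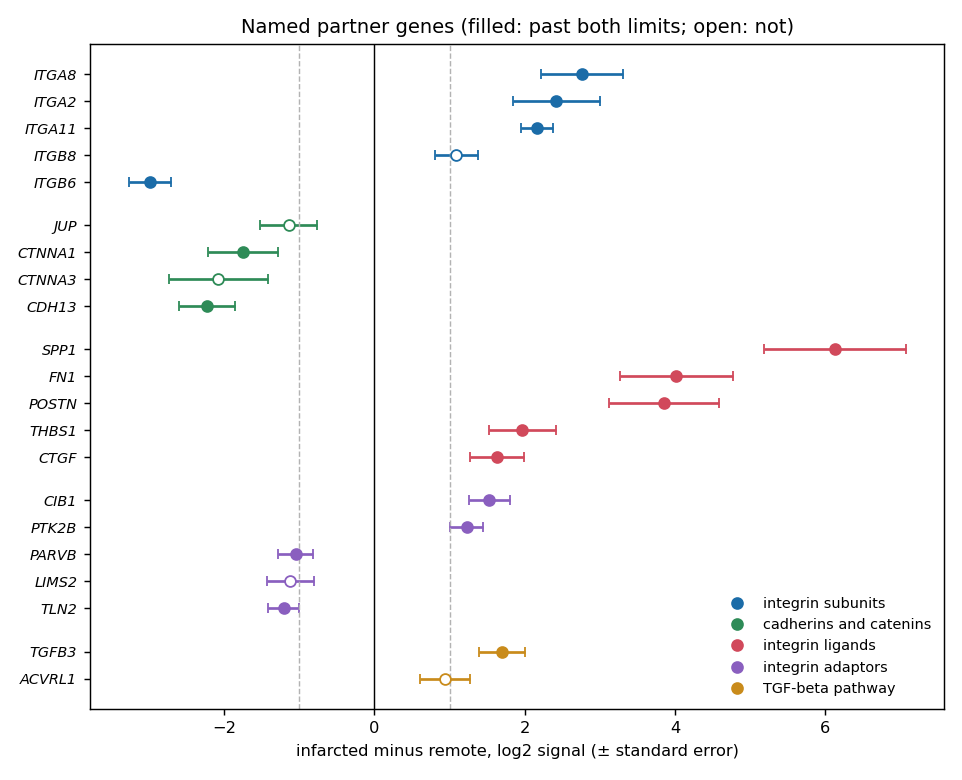
Infarcted minus remote log2 signal with its standard error (horizontal axis) for the 21 named partner genes, grouped as integrin subunits, cadherins and catenins, integrin ligands, integrin adaptors and the TGF-beta pathway. Filled points passed both limits, dashed lines mark a 2-fold change, and the values run from −2.99 for ITGB6 to 6.13 for SPP1.

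Markers of several cell types also differed between the regions. The share of all transcript clusters called higher, to be set beside each count of markers that rose, was 2.19%. Of 14 macrophage and monocyte markers 3 were named (LGALS3, MSR1 and LYZ), and all 3 rose, with a mean log2 signal per sample of 4.38 to 7.04 in infarcted and 2.85 to 3.73 in remote tissue. Of 9 myofibroblast markers 5 were named and POSTN, FN1, ACTA2 and TAGLN rose, of which POSTN and FN1 are also counted among the ligands above, with means of 6.71 to 8.69 in infarcted and 4.59 to 5.83 in remote tissue. Of 10 fibroblast markers 2 were named, COL3A1, which rose, and FAP, also a myofibroblast marker, which did not pass, with means of 5.86 to 7.86 in infarcted and 3.81 to 5.87 in remote tissue. Of 11 neutrophil markers 3 were named, of which S100A8 rose and S100A12 and MMP9 did not pass, with means of 2.82 to 5.47 in infarcted and 2.30 to 2.64 in remote tissue. All 4 remote signals of S100A12 and of MMP9 were below their array medians, as were 3 of the 4 of S100A8 and of LYZ. The sizes of these differences are therefore not exact. Both named smooth muscle and pericyte markers of 11, ACTA2 and TAGLN, rose, with means of 6.03 to 7.61 in infarcted and 4.64 to 5.38 in remote tissue, and both are among the myofibroblast markers too. In infarcted tissue pig 4, which had the lowest signals of ITGB3, CDH11 and CD109 but not of ITGA4, also had the lowest mean of each of these 5 lists. Its mean of the cardiomyocyte markers was the highest at 8.61, but that of pig 2 was close at 8.56, with 7.73 in pig 1 and 6.59 in pig 3. Pig 2 had the highest infarcted signals of ITGB3, CDH11 and CD109. Whether the 4 genes follow any of these means was not tested. FAP was called higher with the replicate block (adjusted p = 0.00655) and without pig 4 (0.0128), MMP9 likewise (0.0481 and 0.00124), and S100A12 without pig 4 (0.00283). Of all transcript clusters, 3.33% were called higher with the block and 4.64% without pig 4. Among these markers COL3A1, ACTA2, LYZ, S100A8 and POSTN lost their call when single arrays of pigs 1 to 3 were dropped, with highest adjusted p values of 0.109, 0.0533, 0.0528, 0.0601 and 0.0504. None of the 11 lymphocyte, 10 platelet and 10 endothelial markers carried a name. Lymphocytes, known for ITGA4, and platelets, known for ITGB3, were thus not measured here by their own markers, and nor were endothelial cells. The part of any of these cell types in the differences of the 4 genes was not tested.

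The named genes nearest to each of the 4 genes were found by the root mean square difference of log2 signals over the 8 arrays, after each gene was centred on its own mean. CD109 had the closest neighbour, CCDC109B, now called MCUB, a subunit of the mitochondrial calcium channel, at a distance of 0.0991, beside a median of 1.28 over the 1120 other named genes. Its log2 signal was 4.97, 5.66, 4.77 and 4.64 in infarcted and 3.96, 3.29, 3.90 and 3.39 in remote tissue, so it shared the high infarcted and low remote sample of pig 2. The kinase BMX (0.237) and the small GTPase GEM (0.245) came next. Nearest to ITGB3 were USP6NL (0.247), a GTPase-activating protein, NPC2 (0.253), a lysosomal cholesterol carrier, and SHTN1 (0.264), and each was also lower in the infarcted than in the remote sample of pig 4. For NPC2 these were 5.05 and 5.25, and for USP6NL 2.26 and 2.76. Nearest to CDH11 were GMFG (0.349), an actin regulator of leukocytes, the lysosomal protease CTSS (0.428) and the metalloprotease ADAM12 (0.461), against a median of 2.29. Nearest to ITGA4 were the chromatin remodeller CHD3 (0.226), CRLF3 (0.272) and the polyamine enzyme SAT1 (0.340), against a median of 1.57. The named genes were all selected for a difference between the regions and share the same 8 arrays, so these distances are a description.

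**Figure D4:**
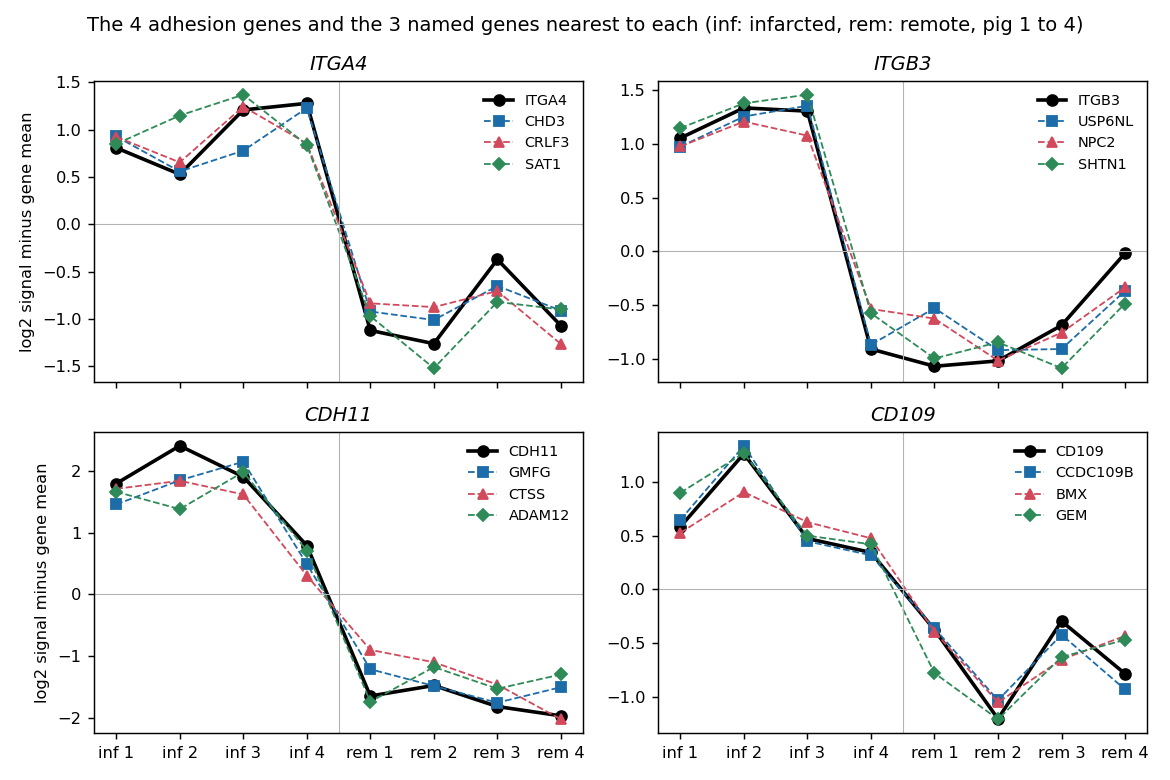
Log2 signal minus the gene's own mean (vertical axis) on the 8 arrays (horizontal axis, infarcted then remote, pigs 1 to 4) for ITGA4, ITGB3, CDH11 and CD109 in black and the 3 nearest named genes of each in colour. In the panel of ITGB3 all 4 lines drop at the infarcted sample of pig 4, and in that of CD109 the lines of CD109 and CCDC109B nearly coincide at a distance of 0.0991.

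Centring each gene within its region leaves out the difference that chose the 4 genes and compares only how the pigs deviated. By this distance CCDC109B was again nearest to CD109 (0.0968, median over named genes 0.533), followed by the transferrin receptor TFRC (0.215), which was lower in infarcted tissue with a difference of −1.55, and GEM (0.221). Nearest to CDH11 were the actin nucleation subunit ACTR2 (0.118), SMPDL3B (0.123) and the phospholipase PLCB1 (0.152), with a median of 0.499. Nearest to ITGB3 were WDR63 (0.175), SHTN1 (0.213) and PRUNE2 (0.229). Each of these 3 had its lowest infarcted and its highest remote signal in pig 4, as did ITGB3, at 2.67 and 2.61 for WDR63. Nearest to ITGA4 was CHD3 (0.211, median 0.623), followed by the mitochondrial import gene TIMM44 (0.251) and the microRNA gene MIR490-1 (0.256), of which the last 2 were lower in infarcted tissue, with differences of −1.22 and −1.25. CHD3 was nearest to ITGA4 and CCDC109B to CD109 under both ways of centring.

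**Figure D5:**
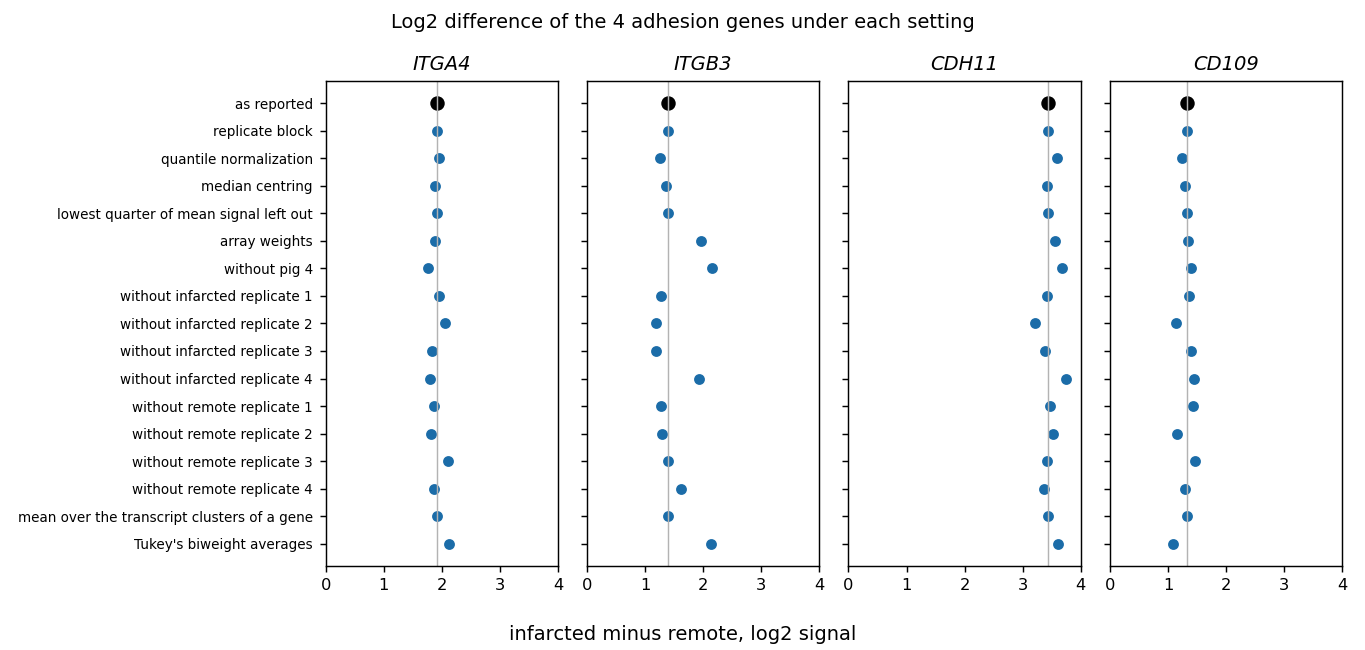
Infarcted minus remote log2 signal (horizontal axis) of ITGA4, ITGB3, CDH11 and CD109 as reported (black) and under 16 other settings (blue), which change the block, the filter, the normalization, the weights, the arrays left out or the averaging. The block, the filter and the mean over a gene's clusters cannot move these differences. ITGB3 spans 1.18 to 2.15, CDH11 3.21 to 3.75, ITGA4 1.77 to 2.13 and CD109 1.08 to 1.46.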

How the data were processed

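RNA was hybridised to GeneChip porcine gene arrays, which the authors normalized and annotated in the Transcriptome Analysis Console. The authors deposited log2 signals for 25470 transcript clusters on 8 arrays, with no detection calls. The summarisation method is not given in the sources used here. A further deposited comparison table (log2 group averages, fold changes and p-values for 2331 transcript clusters) served only for gene symbols and to check the IDs: all its group averages equalled Tukey's biweight of the deposited signals within 0.02. Enrichment sheets were not used. A gene was named where a cluster carried exactly 1 symbol (1143 clusters, 1121 genes), after 111 placeholder loci were updated from RefSeq records, and the brightest cluster stood for a gene. Each of the 4 genes had 1 cluster. No array coordinates or sequences were used.

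limma 3.58.1 (R 4.3.3) was run on the signals (region as the only factor, empirical Bayes), with Benjamini-Hochberg adjustment over all clusters. Called, rose and fell mean past both limits, adjusted p 0.05 and fold change 2. The number of arrays limits the precision, and the median standard error was 0.274. The fit was tested on simulated data. By the labels the samples are paired within hearts, so the pig was a replicate block in an alternative. The deviations of a pair from the region means correlated with r of 0.177, 0.428, 0.113 and 0.441 in pigs 1 to 4 (across clusters, which are not independent replicates). The highest r with a sample of another pig was 0.335, 0.335, 0.0904 and −0.00162. It was thus above that of the pair in pig 1 and near it in pig 3. Other alternatives were quantile normalization, median centring, leaving out the dimmest 25% of clusters, array weights, the mean over a gene's clusters, and leaving out pig 4 or each array. Tukey's biweight averages and clusters shared with an unnamed locus were added after the data were seen. The 4 genes, the gene lists and the settings were chosen with earlier results of these data known. The rule for naming took the 4 genes, the 3 nearest named genes of each by 2 distances, and up to 3 called genes per direction and pathway list; the other named list members were added after their values were seen. Tables were made with Python 3.11.15, pandas 2.3.3 and numpy 2.4.6, and figures with matplotlib 3.10.9.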

Additional observations from a re-analysis of the deposited data

Results flagged for a closer look

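Of 50 groups of 4 signals (25 genes in each region), 6 held a sample whose gap to the nearest other sample exceeded Dixon's limit for 4 samples, which chance passes in about 1 in 20 groups. The infarcted sample of pig 4 was low for ITGB3 at 2.14, with the other infarcted samples at 4.10 to 4.38. It was also low for FN1 at 7.55 (others 10.96 to 11.08), for SPP1 at 5.31 (others 10.15 to 10.37), for CIB1 at 6.87 (others 7.66 to 7.82) and for ACVRL1 at 3.88 (others 5.10 to 5.23). The remote sample of pig 3 was high for TGFB3 at 3.69, with the other remote samples at 3.32 to 3.36. Of the 6, 5 were thus in the infarcted sample of pig 4, whose array had a weight, limma's estimate of reliability, of 0.289, beside 0.320 for the remote array of that pig and 1.02 to 2.33 for the other 6.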

How the results depend on the processing

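The log2 differences of ITGA4, ITGB3, CDH11 and CD109 kept their direction and moved by less than 1 SD over pigs under the 16 alternatives, of which the replicate block, the filter on dim clusters and the mean over a gene's single cluster cannot move them, with leave-one-out ranges of 1.80 to 2.11, 1.18 to 1.93, 3.21 to 3.75 and 1.13 to 1.46. ITGB3 moved the most, to 2.15 without pig 4, 2.13 with Tukey's biweight averages and 1.96 with array weights. Its SD over pigs was 1.53 with pig 4 and 0.18 over pigs 1 to 3, so for ITGB3 a move of less than 1 SD says little. With the replicate block, higher transcript clusters numbered 848 against 558 and lower ones 1161 against 813, and the block changed the calls of ITGB8, CTNNA3 and LIMS2 and no other call among the named partner genes. Among the markers named in the report it changed those of FAP and MMP9. Array weights gave 1136 higher and 1508 lower clusters, 4 lower cadherins and catenins and 2 higher TGF-beta genes, and leaving out pig 4 gave 1182, 1467, 4 and 2. Quantile normalization left 1 lower integrin adaptor, median centring 1 lower cadherin or catenin. ITGA2 was not called under quantile normalization (adjusted p = 0.0545) or median centring (0.0715), while ITGB8 was called under quantile normalization (0.0146), with dim clusters left out (0.0442) and with array weights (0.00289). Leaving out 1 array gave 258 to 1126 higher and 414 to 1357 lower clusters, 1 to 4 higher integrin subunits, 1 to 4 lower cadherins and catenins, 2 to 5 higher ligands, 1 to 3 lower adaptors and 1 to 2 higher TGF-beta genes. The causes of these shifts were not tested. No value changed direction. Without detection calls, the low remote signals of ITGB3 and CD109 limit how well the sizes of their differences are known. The same holds for ITGA4, with remote signals close to the array medians in pigs 1, 2 and 4.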
